A study of Mus musculus with 24 samples.

Results

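The genes described were 10 members of the tumour necrosis factor (TNF) family, 5 ligands (Tnf, Lta, Ltb, Tnfsf9 and Tnfsf11) and 5 receptors (Tnfrsf1a, Tnfrsf1b, Tnfrsf9, Cd40 and Fas). They were chosen by symbol, and all 10 were found among the 23420 genes counted in each of 24 mouse RNA-seq libraries. The study asked what the TET dioxygenases and the glycosylase TDG do for gene expression in cells that do or do not divide. Th2 cells were grown from sorted naive CD4+ T cells of the spleen and lymph nodes. They were activated through CD3 and CD28 with IL-4 and anti-IFN-γ and then expanded in IL-2. The study also describes a further cycle of this stimulation, and a restimulation for cytokine staining. Which of these cultures gave the RNA is not stated. The Th2 cells were WT or TDG iKO, with 4 libraries of each. Bone marrow-derived macrophages (BMDM), grown with L929-conditioned medium and M-CSF, came from a Tdg cohort (WT and TDG iKO) and a Tet cohort (WT and TET iTKO, which lacks Tet1, Tet2 and Tet3). Each was unstimulated (0 h) or treated for 6 h with KLA, a lipid A of bacterial lipopolysaccharide that acts through TLR4, with 2 libraries per group. All mice were adult C57BL/6, and both Cre-carrying and control mice had received tamoxifen. The floxed genes were deleted by a tamoxifen-inducible CreERT2 that was not specific to T cells or macrophages. Further alleles of the WT mice, and whether replicates came from separate animals, are not given in the sources used here. The p-values then measure only the spread between these samples, which may be technical.

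TNF family ligands are trimeric proteins, mostly anchored in the membrane, that cluster their receptors and recruit adaptors such as TRAF proteins or death domain proteins. The signal can activate NF-κB and MAP kinases or start apoptosis, depending on the receptor and on inhibitors in the cell. In macrophages TNF is a classic early product of Toll-like receptor signalling, whereas lymphotoxins, RANKL (Tnfsf11) and CD137 (Tnfrsf9) are best known from activated lymphocytes.

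The genes of 3 ligands are neighbours on chromosome 17, within 10913 bases of the mm9 genome. Ltb lies at chr17:35331384-35333265 on the plus strand, Tnf at chr17:35336326-35338952 and Lta at chr17:35340110-35342296, both on the minus strand. Tnfsf9 lies at chr17:57244808-57247180 (plus strand) and Tnfsf11 at chr14:78677252-78707850 (minus strand). The receptor genes are Tnfrsf1a at chr6:125299380-125312502, Tnfrsf9 at chr4:150288671-150320211, Cd40 at chr2:164881127-164898448 and Fas at chr19:34365149-34402260, all on the plus strand, and Tnfrsf1b at chr4:144803366-144836773 on the minus strand. No exon of a member overlapped an exon of another gene. The promoters of the lymphotoxin and Tnf genes are shown because these neighbours had different patterns across the groups, and those of Tnfrsf1b and Fas because both genes were higher in TET iTKO macrophages at 0 h. The sequences are RefSeq windows of build GRCm38.p6, found by exact match in mm9 and read 5′ to 3′ on the gene's strand up to the first annotated exon. Capitals mark matches to the TATA box (TATAAA), the GC box (GGGCGG), AP-1 (TGANTCA) or the NF-κB consensus, searched on both strands.
Ltb, chr17:35331202-35331383, plus strand: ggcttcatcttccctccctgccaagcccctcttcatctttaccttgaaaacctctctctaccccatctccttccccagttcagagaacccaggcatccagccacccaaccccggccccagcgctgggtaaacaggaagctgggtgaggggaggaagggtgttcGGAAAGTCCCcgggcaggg
Tnf, chr17:35338953-35339202, minus strand: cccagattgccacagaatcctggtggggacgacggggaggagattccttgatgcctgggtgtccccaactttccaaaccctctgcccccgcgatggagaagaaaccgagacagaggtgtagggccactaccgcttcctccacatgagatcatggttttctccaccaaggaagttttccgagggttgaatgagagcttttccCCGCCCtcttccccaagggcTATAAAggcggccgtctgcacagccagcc
Lta, chr17:35342297-35342546, minus strand: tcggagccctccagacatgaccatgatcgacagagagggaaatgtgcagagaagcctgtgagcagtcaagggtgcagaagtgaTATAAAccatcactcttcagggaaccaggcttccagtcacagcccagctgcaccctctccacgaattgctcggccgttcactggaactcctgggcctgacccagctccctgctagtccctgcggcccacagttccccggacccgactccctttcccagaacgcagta
Tnfrsf1b, chr4:144836774-144837023, minus strand: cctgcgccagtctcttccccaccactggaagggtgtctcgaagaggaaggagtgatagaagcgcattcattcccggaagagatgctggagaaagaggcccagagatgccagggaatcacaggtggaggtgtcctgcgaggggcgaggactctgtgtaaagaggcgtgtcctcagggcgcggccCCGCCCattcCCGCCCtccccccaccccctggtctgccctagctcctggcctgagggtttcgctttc
Fas, chr19:34364899-34365148, plus strand: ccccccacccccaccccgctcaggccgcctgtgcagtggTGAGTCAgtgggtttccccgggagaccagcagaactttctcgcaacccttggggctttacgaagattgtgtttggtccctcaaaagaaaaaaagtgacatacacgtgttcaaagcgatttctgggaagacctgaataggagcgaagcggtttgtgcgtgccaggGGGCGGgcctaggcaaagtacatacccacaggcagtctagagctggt

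Of the 10 members, 8 matched an entry of the promoter table, with 9 windows of 250 bases before to 50 bases after a RefSeq start. Cd40 and Tnfsf9 had no entry. In Tnf the TATA box lay 29 to 24 bases before the start and a GC box 49 to 44 bases before it, whereas in Lta the TATA match lay 167 to 162 bases before the start. The NF-κB match of Ltb, on the opposite strand, lay 87 to 78 bases before its RefSeq start, and the AP-1 match of Fas lay 211 to 205 bases before its own. The NF-κB consensus was found in 2 of the 9 member windows and in 3.9% of 32851 windows of all genes. The shares were 2 of 9 and 6.75% for AP-1, 3 of 9 and 12.4% for the TATA box, and 4 of 9 and 32.7% for the GC box. The matches are letters only and none was tested as a binding site.

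Gene counts per library summed to between 4982950 and 26657729. The lowest was replicate 2 of WT of the Tdg cohort at 0 h. It also had the largest share of unassigned read pairs among the BMDM libraries (46.6%). The Th2 libraries of replicates 3 and 4 differed by little more than counting noise within each genotype (mean chi-square per gene of 1.34 in TDG iKO and 1.51 in WT, against at least 10.9 for any other pair of replicates). They were therefore summed and counted as 1 sample, giving 3 samples per genotype. Summed macrophage markers reached 20413 to 27770 CPM (counts scaled to library size) in BMDM and 10.3 to 60.4 in Th2 cells, where Csf1r and Mertk were at 0. Summed T cell markers reached 1881 to 3000 CPM in Th2 cells and 7.68 to 27.9 in BMDM. Tdg was at most 0.813 CPM in any library, and Tet2 and Tet3 were not lower in TET iTKO BMDM (log2 fold change at 0 h of 0.37 and 0.12). Tdg, near 0 in WT as well, and Tet1, at most 1.05 CPM in BMDM, were too low to show a deletion. Gene counts do not resolve the deleted exons of Tet2 and Tet3, so they did not check the genotype labels. The TDG iKO Th2 library of replicate 1 was the only one with more than 1 count of Y-linked genes (4277), and Xist was at 0 in replicate 1 of the Tet cohort's WT at both times.

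The 2 cell types expressed different members of the family. Levels are given in TPM, transcripts scaled by exonic length and library size, and as the mean of the samples of a group. In WT Th2 cells Ltb was the highest member (672 TPM), followed by Tnfrsf9 (445), Lta (162) and Tnfrsf1b (128). In unstimulated WT BMDM of the Tet cohort Tnfrsf1b led (426 TPM), followed by Tnfrsf1a (170) and Tnf (136). The same 3 genes led in the Tdg cohort, at 367, 148 and 121 TPM.

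Lymphotoxin β (Ltb) anchors lymphotoxin α (Lta) at the cell surface, where the complex binds the lymphotoxin β receptor. Ltb had 580.5 to 832 TPM over the 6 Th2 samples (median 787) and at most 8.12 TPM over the 16 BMDM libraries. Lta had 57.3 to 388 TPM in Th2 cells (median 215), at most 1.44 in BMDM at 0 h and at most 4.34 at 6 h. Both lymphotoxins were thus higher in every Th2 sample than in any macrophage library. Tnfsf11 (RANKL), the ligand that drives osteoclast formation, had 5.58 to 17.7 TPM in Th2 cells. In macrophages it was at 0 in every library except 3 of the TET iTKO, where 1, 1 and 3 reads were counted. Tnfrsf9 (CD137), a costimulatory receptor of activated T cells, had 334 to 535 TPM in Th2 cells (median 460.3) and at most 2.64 in BMDM.

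The reverse order was seen for the TNF receptors and CD40. Tnfrsf1a, the death domain receptor of TNF present on most cells, had 17.4 to 35.7 TPM in Th2 cells and 105 to 209 in BMDM at 0 h. Tnfrsf1b, the second TNF receptor, which lacks a death domain, had 108 to 137 TPM in Th2 cells and 316 to 664 in BMDM at 0 h. Cd40, which receives the CD40 ligand signal of helper T cells on antigen-presenting cells, had at most 0.368 TPM in Th2 cells and 8.82 to 14.6 in BMDM at 0 h. The groups of Th2 cells and macrophages did not overlap for these 3 receptors. Tnf itself ranged from 40.4 to 65.3 TPM in Th2 cells and from 104 to 174 in BMDM at 0 h, also without overlap. Tnfsf9 (the CD137 ligand) and Fas, the death receptor of FAS ligand, overlapped between the cell types, with 22.1 to 41.8 and 13.0 to 36.0 TPM in Th2 cells against 14.0 to 25.6 and 9.42 to 26.3 in BMDM at 0 h.

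By group mean, Tnf, Tnfrsf1b and Cd40 fell into 3 levels, stimulated BMDM, unstimulated BMDM and Th2 cells. For Tnf the 4 stimulated groups had means of 725 to 867 TPM, the 4 unstimulated BMDM groups 121 to 156 and the 2 Th2 groups 46.3 and 49.6, and neighbours within each of these levels overlapped. Tnfrsf1b had 1821 to 2169, 367 to 635 and 124 to 128 TPM, with the same overlaps of neighbours. Unstimulated TET iTKO (606 to 664 TPM) and WT of its cohort (414 to 437), which were not neighbours, did not overlap. Cd40 had 103 to 143, 9.70 to 14.0 and at most 0.260 TPM, and of its neighbours within a level WT and TET iTKO of the Tet cohort at 0 h alone did not overlap. Fas had 83.7 to 94.6 TPM in the 4 stimulated groups and 10.3 to 22.2 in the 4 unstimulated BMDM groups, and WT Th2 cells, at 20.9, overlapped with unstimulated TET iTKO and WT BMDM beside them in the order. For Tnfrsf1a the 8 BMDM groups lay between 148 and 190.4 TPM, stimulated and unstimulated groups mixed in the order, with 23.3 and 24.8 in Th2 cells.

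**Figure D1:**
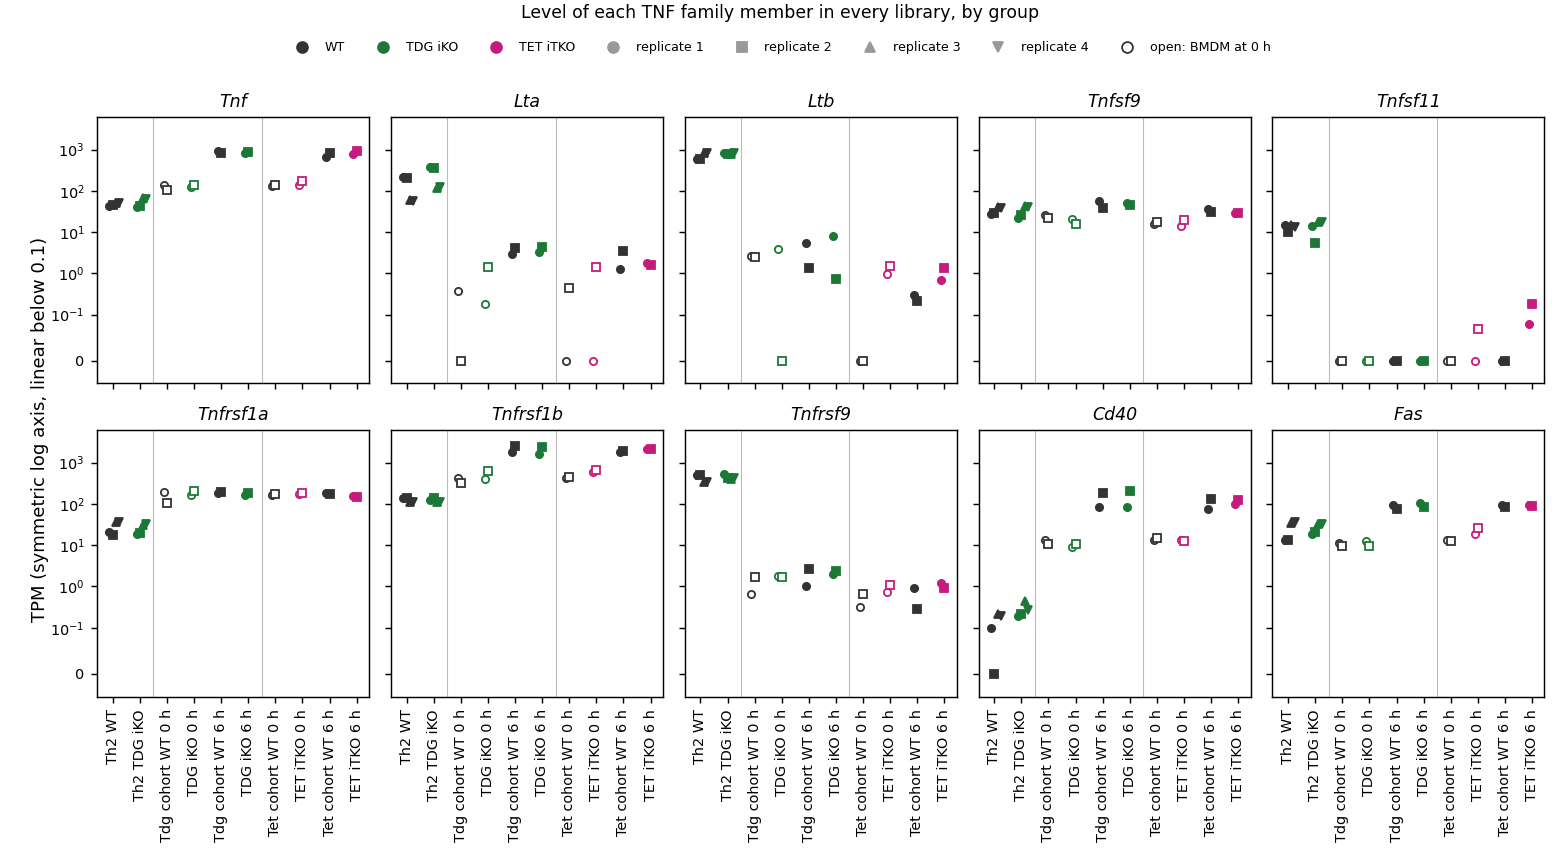
Level of each member in every library, as TPM on a symmetric log axis that is linear below 0.1, by group. Each point is 1 library (colour, genotype; shape, replicate; open, BMDM at 0 h). Ltb, Lta, Tnfsf11 and Tnfrsf9 are high in the Th2 libraries on the left and near 0 in BMDM, and Tnf, Tnfrsf1b, Cd40 and Fas step up at 6 h of KLA.

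Tested between WT Th2 cells (3 samples) and unstimulated WT BMDM of both cohorts (4 libraries), 8 of the 10 members passed an adjusted p of 0.05 (DESeq2), 4 higher and 4 lower in Th2 cells. Of all 13913 genes tested 54.8% were called, 29% higher and 25.8% lower, and 57.5% did not overlap, as was so for the same 8 members. The median of all genes was shifted by 0.13 on the log2 scale, and that of the members was 0.20. The log2 fold changes were 8.94 (SE 0.81) for Lta, 8.37 (SE 1.82) for Ltb and 8.61 (SE 0.51) for Tnfrsf9. Tnfsf11, at 0 in all 4 macrophage libraries, was at least 25.2-fold higher in Th2 cells, against a floor of 3 counts per library. The negative changes were -2.03 (SE 0.17) for Tnf, -3.22 (SE 0.29) for Tnfrsf1a, -2.19 (SE 0.19) for Tnfrsf1b and -7.01 (SE 0.55) for Cd40. Tnfsf9 (0.11, 95% interval -0.54 to 0.76) and Fas (0.28, -0.54 to 1.10) did not pass. Cell type, culture and library preparation cannot be told apart in this comparison. In these bulk samples, fewer cells of a type and less RNA per cell cannot be told apart either.

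KLA raised Tnf and 3 of the receptors, Tnfrsf1b, Cd40 and Fas, in all 4 sets of macrophages tested. Tnf, read as normalised counts, was at 844 and 925 in WT of the Tdg cohort at 0 h and at 6221 and 6267 at 6 h. In TDG iKO it went from 719 and 877 to 5325 and 6991. In the Tet cohort it went from 1339 and 1451 to 7233 and 9244 in WT, and from 1355 and 1674 to 7980 and 9816 in TET iTKO. Each stimulated library was far above each unstimulated one. The log2 fold change of Tnf was 2.82 (SE 0.27, adjusted p 7.55e-22) in WT of the Tdg cohort, 2.95 in TDG iKO, 2.56 in WT of the Tet cohort and 2.55 in TET iTKO, that is 5.87-fold to 7.71-fold.

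Tnfrsf1b was the most abundant member in every BMDM group, and its mean level rose from 367 to 2169 TPM in WT of the Tdg cohort and from 426 to 1821 TPM in WT of the Tet cohort. Its log2 fold change was 2.55 (SE 0.40), 2.24 (SE 0.40), 2.25 (SE 0.10) and 1.85 (SE 0.10) in WT of the Tdg cohort, TDG iKO, WT of the Tet cohort and TET iTKO. Tnfrsf1a, which binds the same ligand, was called in none of the 4 sets. Its log2 fold changes, in the same order, were 0.38 (95% interval -0.23 to 0.99), 0.16 (-0.45 to 0.77), 0.19 (-0.02 to 0.39) and -0.12 (-0.33 to 0.09). The balance of the 2 TNF receptors, as levels per length, therefore moved towards Tnfrsf1b. Tnfrsf1b was at 2.50 times the mean TPM of Tnfrsf1a in unstimulated WT of the Tet cohort and at 10.4 times after KLA. The same ratio went from 2.47 to 11.4 in WT of the Tdg cohort, from 2.71 to 11.4 in TDG iKO and from 3.57 to 14.0 in TET iTKO, and was 5.15 in WT and 5.30 in TDG iKO Th2 cells. In WT of the Tdg cohort at 0 h Tnfrsf1a was at 192 TPM in replicate 1 and at 105 in replicate 2, the library with the fewest counts.

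Cd40 had log2 fold changes of 3.47 (SE 0.54), 4.18 (SE 0.54), 3.03 (SE 0.22) and 3.20 (SE 0.22) in the same order. Its stimulated level differed between replicates. At 6 h the normalised counts were 1214 and 2828 in WT of the Tdg cohort and 1129 and 3305 in TDG iKO. In the Tet cohort they were 1716 and 3153 in WT and 2092 and 2707 in TET iTKO. Replicate 2 was the higher one in all 4 groups, and without its 6 h library the log2 fold change was 2.74 in WT of the Tdg cohort, 3.21 in TDG iKO, 2.52 in WT of the Tet cohort and 3.00 in TET iTKO. Fas rose from 75.0 and 92.0 to 707 and 611 normalised counts in WT of the Tdg cohort and from 151 and 144 to 1135 and 1037 in WT of the Tet cohort, without overlap. Its log2 fold changes were 3.00 (SE 0.33), 3.34 (SE 0.31), 2.88 (SE 0.18) and 2.12 (SE 0.18).

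Tnfsf9 changed less and was called in 3 of the 4 sets. Its log2 fold change was 0.97 (SE 0.36, adjusted p 0.0736) in WT of the Tdg cohort, 1.63 (SE 0.36, adjusted p 2.00e-04) in TDG iKO, 1.18 (SE 0.25) in WT of the Tet cohort and 0.91 (SE 0.25, adjusted p 0.00216) in TET iTKO. The call was lost in TDG iKO without replicate 2 at either time (adjusted p 0.0602 and 0.0566) and in TET iTKO without the 0 h library of replicate 1 (adjusted p 0.0985). Lta was low in all macrophages, with 0 to 14 raw counts at 0 h and 12 to 37 at 6 h, and the times did not overlap within any set. It passed only in WT of the Tet cohort (log2 3.50, SE 1.27, adjusted p 0.0262), where edgeR gave an adjusted p of 0.0572 and the call was lost without the 0 h library of replicate 1 (0.256) or the 6 h library of replicate 2 (0.419). In WT of the Tdg cohort its adjusted p was 0.0593, and 0.0432 with the replicate number as a block, a fit that called 10.3% of genes higher. Ltb and Tnfrsf9 were called in none of the 4 sets, and Tnfsf11 was too low to test.

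Between 4 and 6 members were called higher in each set and none lower. The counts were 4 of 9 members tested in WT of the Tdg cohort, 5 of 9 in TDG iKO, 6 of 9 in WT of the Tet cohort and 5 of 8 in TET iTKO. The shares of all genes called higher were 5.29%, 4.27%, 13.1% and 12.8% in the same order, and those called lower 3.32%, 2.81%, 11.1% and 11.6%. The 2 times did not overlap for 7, 7, 8 and 7 of the members tested, and for 49.2%, 45.9%, 63.9% and 62.9% of all genes. The members' median log2 fold change was 2.55, 2.24, 2.56 and 1.57, against -0.03, 0.0005, -0.01 and -0.01 over all genes tested. Sets of the same cohort were fitted together and share one estimate of the spread.

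**Figure D2:**
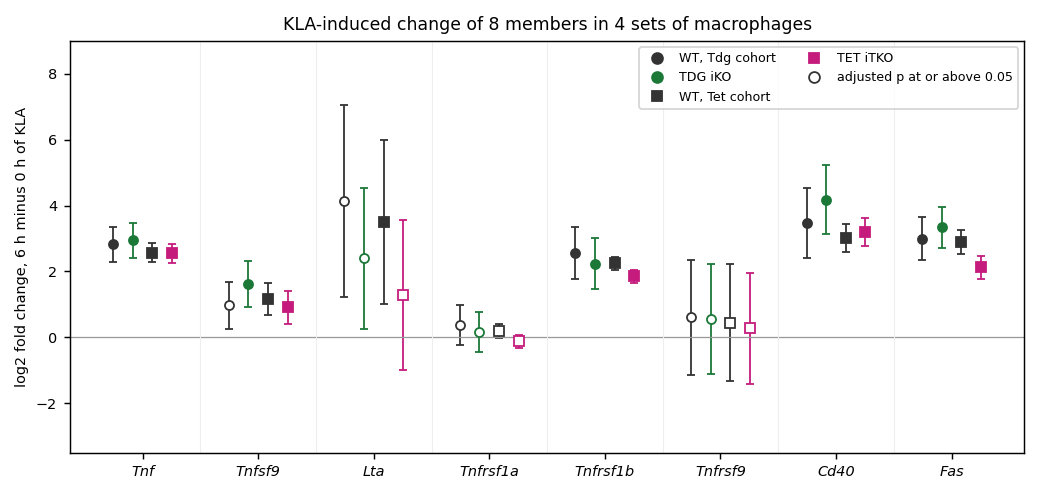
Log2 fold change from 0 h to 6 h of KLA (y axis) of 8 members in the 4 sets of BMDM, with 95% intervals. Filled symbols passed an adjusted p of 0.05. Tnf, Tnfrsf1b, Cd40 and Fas lie between 1.85 and 4.18 in every set, whereas the intervals of Tnfrsf1a and Tnfrsf9 include 0 in every set.

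Across the 16 BMDM libraries the genes with the most similar log2 normalised counts were named for each member with a mean of at least 50. They are a description over libraries that share the KLA contrast and 2 cohorts. Icam1, Ccl3 and Cd82 were nearest to Tnf (Pearson's r of 0.997, 0.995 and 0.994), and Slc7a2, Mapkapk2 and Tnip1 to Tnfrsf1b (0.993, 0.992 and 0.992). Cd40 was nearest to Ccrl2, Ccl3 and Mapkapk2 (0.987, 0.984 and 0.983), and Fas to Lpcat2, Samsn1 and Tlr2 (0.994, 0.992 and 0.990). The nearest to Tnfsf9 were Sap30, Vta1 and Slc16a3 (0.965, 0.964 and 0.960). Tnfrsf1a, which KLA did not change past the threshold, had lower values, with Dgcr14, Hk1 and Aim1 at 0.853, 0.849 and 0.844.

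TET deficiency was accompanied by higher expression of 3 members in unstimulated macrophages, Tnfrsf1b, Fas and Ltb. Of 12200 genes tested at 0 h, 4.38% were called higher in TET iTKO and 3.12% lower. The 3 were called of 9 members tested, and none was called lower. The genotypes did not overlap for 5 members, Ltb, Tnfrsf1b, Tnfrsf9, Cd40 and Fas, and for 53.5% of all genes. The members' median log2 fold change was 0.50, against 0.01 over all genes.

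Tnfrsf1b had 13735 and 14909 normalised counts in TET iTKO and 9873 and 10418 in WT at 0 h, without overlap. This was 1.41-fold (log2 0.50, SE 0.10, adjusted p 1.70e-05), and the call held in all 9 alternatives (adjusted p up to 0.0300), among them the fit without the WT library that had no Xist counts (log2 0.46, adjusted p 0.0172). After KLA the genotypes were closer, with 50872 and 52587 against 46351 and 49970, and the difference did not pass (log2 0.10, 95% interval -0.09 to 0.29, adjusted p 0.713). Fas had 194 and 279 normalised counts in TET iTKO and 151 and 144 in WT at 0 h. Its log2 fold change was 0.69 (SE 0.19, adjusted p 0.00773). The call was lost without replicate 2 of TET iTKO (0.40, adjusted p 0.710), without either WT library (adjusted p 0.0864 and 0.170) and with only the 4 libraries compared (0.102). At 6 h Fas was at 1040.0 and 1031 in TET iTKO and at 1135 and 1037 in WT, and was not called.

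Ltb was at 0 in both WT libraries at 0 h and at 7 and 15 raw counts in TET iTKO, which is at least 4.02-fold higher against a floor of 3 counts per library (adjusted p 0.0201). No adjusted p was given without replicate 2 of TET iTKO, without either WT library or after the filter on low counts. At 6 h it had 6.69 and 13.1 normalised counts in TET iTKO and 3.09 and 2.21 in WT, and the difference did not pass (adjusted p 0.559). These are low levels, at most 1.51 TPM in the Tet cohort. B cell markers, like Ltb, were higher in TET iTKO than in WT of the Tet cohort. Their summed level at 0 h, replicate 1 first, was 5.86 and 22.4 CPM in TET iTKO and 1.95 and 1.49 in WT. At 6 h it was 4.10 and 19.6 against 1.72 and 2.49. All 5 had counts in each of the groups, and Cd79a (log2 2.71), Cd79b (4.03) and Ms4a1 (2.91) were called at 0 h. Within TET iTKO, replicate 2 was the higher library for Ltb and for the B cell markers at both times. Within WT of that cohort at 6 h, replicate 1 was the higher library for Ltb and replicate 2 for the markers. In the Tdg cohort the TDG iKO library with 0 counts of Ltb at 0 h had 0.928 CPM of B cell markers and the other one, with 23 counts, had 5.96. At 6 h the TDG iKO libraries had 49.8 and 5.41 normalised counts of Ltb and 6.73 and 0.753 CPM of these markers. In WT of that cohort at 0 h Ltb was lower in replicate 1 (15.2 and 20.7 normalised counts) and the markers were higher in it (4.28 and 2.81 CPM). In the same WT at 6 h Ltb differed between libraries (34.4 and 9.50 normalised counts) while the markers were nearly equal (2.74 and 2.76 CPM). The summed neutrophil markers were also higher in TET iTKO, at 68.8 to 148 CPM against 28.5 to 53.4 in WT at 0 h and at 74.3 to 114 against 37.2 to 38.6 at 6 h. Summed markers of haematopoietic progenitors were at 5.86 to 22.5 CPM in TET iTKO against 2.92 to 3.16 in WT at 0 h. At 6 h they were at 3.57 to 12.7 against 1.01 to 1.21. Dendritic cell markers, at low levels, were at 1.14 to 1.15 against 0.195 to 0.233 at 0 h. Their 6 h values were 0.512 to 0.727 against 0.238 to 0.303. T cell markers and NK and CD8 T cell markers overlapped between genotypes at both times. Mast cell and basophil markers overlapped at 0 h only. Among macrophage markers Cd68 (log2 -0.63) and Lyz2 (-0.41) were lower in TET iTKO at 0 h. The part of any of these marker sets in the difference of Ltb, Tnfrsf1b or Fas was not tested.

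At 6 h of KLA the one member called was Tnfrsf1a, which was lower in TET iTKO, with 2512 and 2499 normalised counts, while WT had 3197 and 3085 (log2 -0.33, SE 0.11, adjusted p 0.0369). Of 11634 genes tested 3.34% were called lower and 3.24% higher, and 47.4% did not overlap, as 4 of the 9 members tested (Ltb, Tnfsf9, Tnfrsf1a and Tnfrsf1b). For Tnfrsf1a the call was lost in edgeR (adjusted p 0.0527), with only the libraries compared (0.190) and without any 1 of the 4 libraries (0.102 to 0.271). Tnf did not pass at either time. Its log2 fold change between TET iTKO and WT was 0.12 (95% interval -0.17 to 0.41) at 0 h and 0.11 (-0.17 to 0.40) at 6 h.

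**Figure D3:**
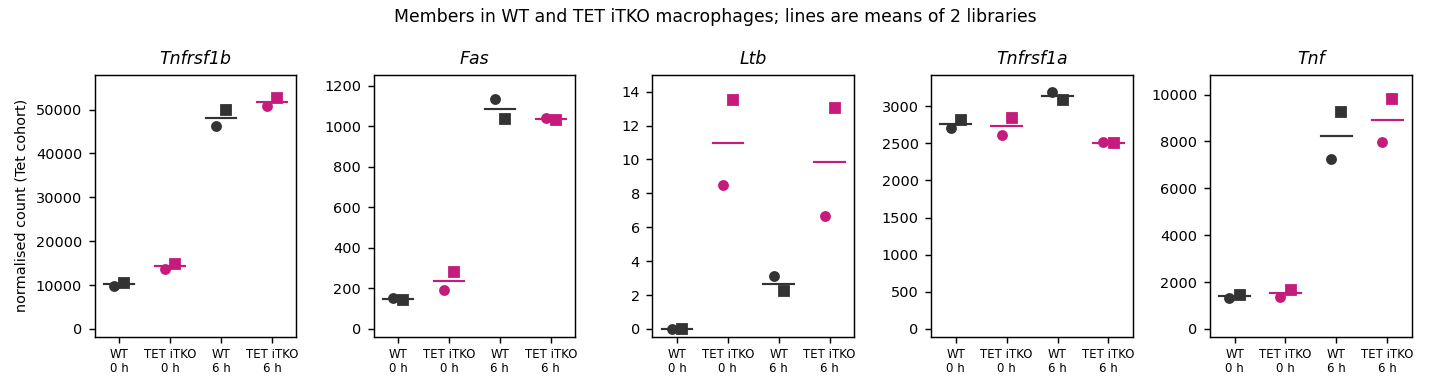
Normalised counts of 5 members in the 8 BMDM libraries of the Tet cohort, by genotype and time. Each point is 1 library (circle, replicate 1; square, replicate 2) and each line a mean of 2 libraries. Tnfrsf1b and Fas are higher in TET iTKO at 0 h (13735 and 14909 against 9873 and 10418 for Tnfrsf1b), the genotypes of Fas overlap at 6 h, and Ltb is at 0 in both WT libraries at 0 h.

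The change of the KLA response with genotype was tested as an interaction. By DESeq2 no member passed in the Tet cohort, where 0.426% of 12200 genes did, and by edgeR 1 gene did, which was no member. At an unadjusted p under 0.05, 3 of the 9 members passed, Tnfrsf1a, Tnfrsf1b and Fas. So did 544 genes, counted over every gene with a p-value and not only the 12200 with an adjusted p. The number of genes with a p-value is not given here, so the 3 members are not set against a share. Tnfrsf1b had a log2 response that was smaller by 0.39 in TET iTKO (log2 difference -0.39, SE 0.14, adjusted p 0.345). With the replicate number nested in genotype as a block the difference was -0.39 (adjusted p 0.00339, 2.48% of genes called), and edgeR with this block gave an adjusted p of 0.00818. For Fas the difference was -0.76 (SE 0.26, adjusted p 0.290), with an adjusted p of 0.106 under the block and 0.0238 in edgeR with it. Without the 0 h library of replicate 1 of TET iTKO it was -0.99 (adjusted p 0.0386). For Tnf the difference was -0.01 (95% interval -0.42 to 0.40). In the Tdg cohort 0 of 15026 genes passed.

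No member differed between TDG iKO and WT macrophages past the threshold. By DESeq2 no gene of 15026 was called at 0 h or 6 h (0%), and none by edgeR. At an unadjusted p under 0.05, 265 genes passed at 0 h and 34 at 6 h, none of them among the 9 members tested. Tnf differed by a log2 value of -0.15 (95% interval -0.69 to 0.40) at 0 h and -0.02 (-0.55 to 0.51) at 6 h, intervals that are wider than in the Tet cohort. At 0 h 2 members did not overlap between genotypes, as was so for 20.6% of all genes. Tnfsf9 had 94.5 and 74.2 normalised counts in TDG iKO and 118 and 147 in WT, and Cd40 had 108 and 137 against 169.9 and 196. Neither passed (adjusted p of 1 in both), both overlapped at 6 h, and as TPM Cd40 overlapped at 0 h too. Tnfrsf1b was at 5441 and 8981 in TDG iKO and at 5979 and 6537 in WT at 0 h, with overlap. The TET and TDG effects were also compared directly, with no member called at 0 h (0.355% of genes) or at 6 h (0.0765%). At 0 h the difference was 0.86 for Fas (SE 0.34, adjusted p 0.579) and 0.30 for Tnfrsf1b (SE 0.43, adjusted p 0.891). For Fas it was 1.04 (adjusted p 0.0419) without replicate 1 of WT of the Tdg cohort. Ltb, at 0 in both WT libraries of the Tet cohort, gave an adjusted p of 0.402, but of 0.0126 with the replicate number nested in cohort as a block and of 0.00307 without replicate 1 of TDG iKO, and its fitted values are no bound on the difference.

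In Th2 cells Lta was the member with the largest difference by genotype among those above 10 normalised counts. It had 2875, 2573 and 779 normalised counts in TDG iKO and 1513, 1438 and 371 in WT, in the order of replicate 1, replicate 2 and the sum of 3 and 4. The genotypes overlapped, with replicates 3 and 4 lowest in both, but TDG iKO was higher in 3 of 3 same-numbered pairs, by 1.90, 1.79 and 2.10 times. The test without the pairs did not pass (log2 0.91, SE 0.61, adjusted p 1.00), and by DESeq2 no gene of 15826 was called (0%), nor any by edgeR. At an unadjusted p under 0.05, 77 genes passed and 0 of the 10 members. Same-numbered samples deviated together across genes (r of 0.510, 0.733 and 0.919), and the numbers were taken to pair the samples. Replicates 1 and 2 were nearer to each other (mean chi-square per gene of 21.3 in TDG iKO and 41.7 in WT) than to 3 or 4 (at least 106). The r values therefore cannot show whether replicate 1 pairs with replicate 1 or with 2. Lta was higher in TDG iKO replicates 1 and 2 than in either WT replicate 1 or 2. With the replicate number as a block the log2 fold change of Lta was 0.95 (SE 0.12, adjusted p 4.13e-12), 1 of 15 genes called out of 10188 (0.147%, and 0.0982% higher). The block also gave a call in edgeR (0.94, adjusted p 0.0158) and with each pair left out in turn (0.87 to 1.00, adjusted p up to 5.13e-04). The TDG iKO library of replicate 1 was the one with Y-linked counts, and the WT library of the same number had 0. The share of the ribosomal RNA gene Rn45s also differed among these libraries, from 0.84% to 8.34% in replicates 1 and 2 and from 0.347% to 0.387% in replicates 3 and 4. The part of sex or of Rn45s in the Lta difference was not tested.

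The neighbours of Lta did not pass. Ltb had 6686, 5929 and 5745 normalised counts in TDG iKO and 4510.4, 4408 and 5908 in WT, higher in 2 of 3 pairs (log2 0.32 with the block, SE 0.12, adjusted p 0.690). Tnf had 354, 359 and 505 in TDG iKO and 342, 377 and 388 in WT (0.14 with the block, adjusted p 0.999). Both sets of values overlapped. Both Tnfrsf9 and Tnfsf11 overlapped as well, with log2 values of 0.11 and -0.09 with the block. Cd40 did not overlap between genotypes, as was so for 3.47% of genes, but rested on 0 to 8 raw counts per library and overlapped as TPM.

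**Figure D4:**
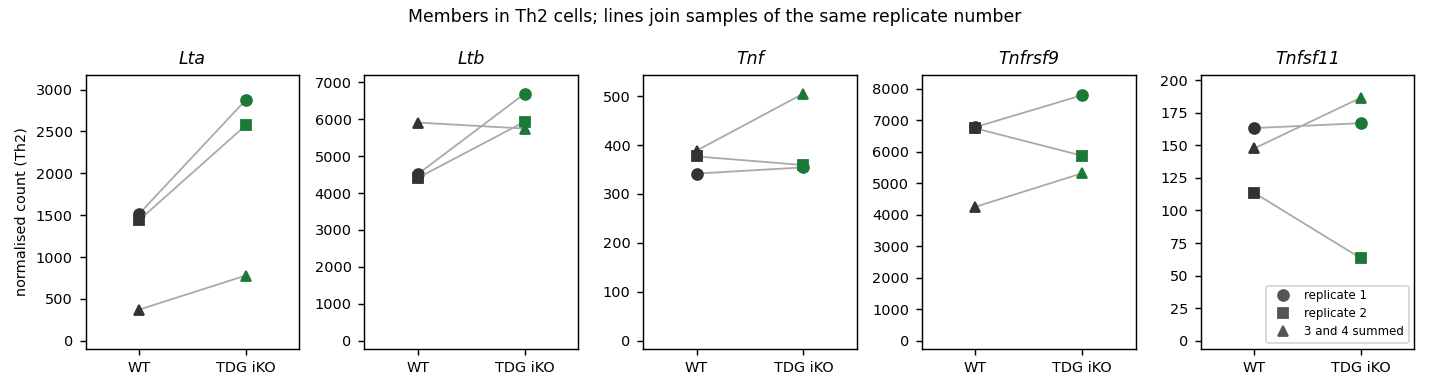
Normalised counts of 5 members in Th2 cells, WT and TDG iKO. Each point is 1 sample (circle, replicate 1; square, replicate 2; triangle, replicates 3 and 4 summed) and lines join the same replicate number. All 3 lines of Lta rise, from 1513, 1438 and 371 to 2875, 2573 and 779, while the lines of the other 4 genes do not all go the same way.

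Other genes of the pathway were followed by lists of 13 further ligands, 23 further receptors and 26 adaptors, kinases and inhibitors. Under KLA 14 of 25 signalling genes tested were called in WT of the Tet cohort (13.1% of all genes were called higher), 13 of 25 in TET iTKO (12.8%) and 8 of 25 in each set of the Tdg cohort (5.29% in WT and 4.27% in TDG iKO), all higher. In WT of the Tet cohort the largest were the adaptor Traf1 (log2 3.25), the NF-κB inhibitor Nfkbia (2.28) and Birc3 (2.28), which binds TRAF adaptors and restrains death signalling. Of 14 further receptors tested in that set 2 were called higher and 5 lower, beside 13.1% and 11.1% of all genes. The lower ones included Tnfrsf26 (-2.70), Tnfrsf23 (-1.68) and Tnfrsf21 (-1.41), while the receptor Tnfrsf14 rose (2.02). Of 8 further ligands tested 3 rose (Tnfsf4, Tnfsf10 and Tnfsf15) and 2 fell (Tnfsf12 and Tnfsf14). Tnfsf4 and Tnfsf14 had means below 50 normalised counts, so their calls rest on few reads. The median over the tested genes of each list was 0.48 for signalling, -0.39 for receptors and 0.28 for ligands, against -0.01 over all genes.

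In TET iTKO at 0 h, 4 of 25 signalling genes tested were called, all higher, beside 4.38% of all genes called higher and 3.12% lower. Traf1 had 778 ± 81.1 normalised counts (SD, n = 2) against 310 ± 9.03 (SD, n = 2) in the controls, which is 1.33 on the log2 scale (SE 0.19, adjusted p 2.03e-10). Birc3 was at 1572 ± 74.1 (SD, n = 2) against 830 ± 52.5 (SD, n = 2) (log2 0.92, adjusted p 1.94e-09). The others were Traf2 (0.56), an adaptor of TNFR2, and Nfkbia (0.51). Of 8 further ligands tested Tnfsf4, Tnfsf8 and Tnfsf15 rose and Tnfsf12 fell (-0.82), and of 15 receptors Tnfrsf14 rose (0.65). In TET iTKO at 6 h, 3.24% of all genes were called higher and 3.34% lower. Of 25 signalling genes tested Traf1 (0.78) and Birc3 (0.42) were still higher at 6 h and Tnfaip8 was lower (-0.59). Of 8 further ligands tested 3 were lower, Tnfsf12 (-1.01), Tnfsf13 (-1.79) and Tnfsf13b (-1.94). The receptor Tnfrsf13c, the BAFF receptor of B cells, was higher (3.57), in the groups in which the B cell markers were also higher. Tnfsf4, Tnfsf8, Tnfsf13, Tnfsf13b and Tnfrsf13c had means below 50 normalised counts, so their calls and fold changes rest on few reads. By DESeq2, with no block or other alternative setting, no gene at all was called between TDG iKO and WT in either cell type. The genes of the 3 lists were thus not called either. Between WT Th2 cells and WT BMDM, 5 ligands, 8 receptors and 7 signalling genes were higher and 3, 5 and 6 lower, of 10, 18 and 25 tested, beside 29% of all genes higher and 25.8% lower. Among them Tnfrsf4 (9.91), the costimulatory receptor OX40 of activated T cells, was higher in Th2 cells, and Ltbr (-5.76), the receptor of the lymphotoxin α and β complex, was lower. Both were chosen after their values were seen.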

How the data were processed

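The authors deposited 1 table per library of raw read counts per gene symbol. Per the labels and the study's methods, polyA+ RNA was sequenced as read pairs, aligned to mm9 with HISAT2 and counted with HTSeq-count; annotation, strand setting and tool versions are not given in the sources used here. The submitters' notes also name DESeq2 1.30.0. Members, lists and tests were chosen with earlier results of these data known. Counts were tested with DESeq2 1.42.0 in R 4.3.3 (Wald test, median-of-ratios size factors, unshrunken log2 fold changes with 95% Wald intervals, Benjamini-Hochberg adjustment over all genes, threshold 0.05), in 1 fit each for Th2 cells, either BMDM cohort, all 16 BMDM libraries, and WT Th2 cells with WT BMDM at 0 h. KLA and genotype comparisons of a cohort share libraries. Th2 replicates 3 and 4 were summed. Same-numbered Th2 samples deviated together, as did libraries of 1 number and genotype at 0 h and 6 h (r of 0.361 to 0.823), a pairing taken from the data and not from the labels, so blocked fits were added. For Th2 replicates 1 and 2 the deviations do not show which samples pair. TPM used exonic lengths of the GENCODE mm9 annotation (21259 genes). Alternatives were edgeR 4.0.16 with TMM, DESeq2 with TMM factors or after removing genes with 10 counts in fewer than 2 samples, each library left out, the libraries compared alone, and the block. List genes with a mean of at least 50 normalised counts were named by fold change, up to 3 in each direction; those below 50, and Nfkbia at 0 h, were named after their values were seen. Read pairs not assigned to a gene (32.8% to 51.6%) stayed out of all totals. The floor of 3 counts covers counting error only. On simulated data DESeq2 made more false calls than the threshold allows in each fit. So did edgeR in the fit of the Tet cohort, and by less, for the larger changes, in those of the Tdg cohort and of Th2 cells with BMDM. It found none of the smaller changes in any fit but that of the Tet cohort, so that no call in edgeR does not show that genes did not differ.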

Additional observations from a re-analysis of the deposited data

How the results depend on the processing

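The 8 member calls between Th2 cells and macrophages held in all 12 alternatives, and the calls of Tnf, Tnfrsf1b, Cd40 and Fas under KLA held in all 9 alternatives of each of the 4 sets. In Th2 cells 0 members were called without the replicate block and 1, Lta, with it, as with the block in edgeR, with each pair left out of the block, and with replicates 3 and 4 as separate libraries in the block. In TET iTKO at 0 h the 3 calls became 1 to 3 with 1 library left out, and the 1 that held was Tnfrsf1b. At 6 h the 1 call, Tnfrsf1a, became 0 in edgeR, 0 with only the libraries compared and 0 to 0 with 1 library left out. For the KLA response by TET genotype, 0 members became 1 with the block nested in genotype, 2 in edgeR with this block and 0 to 1 with 1 library left out. For the TET effect against the TDG effect at 0 h, 0 members became 1 with the block nested in cohort (Ltb, 8.28, adjusted p 0.0126) and 0 to 1 with 1 library left out, which was Ltb without TDG iKO replicate 1 (13.56, adjusted p 0.00307) or Fas without replicate 1 of WT of the Tdg cohort (1.04, adjusted p 0.0419). Of the 39 member results past the threshold in any setting, 1 reversed. This was Ltb under KLA in TDG iKO, positive on the log2 scale and -0.93 without the 6 h library of replicate 1 and ranged from -0.93 to 8.11 with 1 library left out. Of all settings of these results 359 kept direction and call, 15 gained and 16 lost the call, and the causes were not tested. Of 88 results never past the threshold 52 changed sign in some setting.

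Counts over all genes depended more on the fit. Under KLA 1001 genes were called in WT of the Tdg cohort, 413 by edgeR and 1822 with the block, and 824 in TDG iKO, 346 by edgeR and 1312 with the block. The KLA response by TET genotype gave 52 genes, 1 by edgeR, 225 with the block and 365 by edgeR with the block. The difference of TET and TDG effects gave 39 genes at 0 h, 0 by edgeR and 186 with the block, and 10, 1 and 101 at 6 h. In Th2 cells 0 genes became 15 with the block, 2 by edgeR with the block, 2 with replicates 3 and 4 apart and 87 with both. Replicate numbers of WT and TDG iKO or TET iTKO macrophages are only numbers with 2 pairs each (r of 0.313 and 0.822 in the Tdg cohort, 0.0175 and 0.0650 in the Tet cohort), and this block called 4 genes at 0 h for TDG iKO and no member.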
